A study of Mus musculus with 49 samples.

Results

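Transcripts of 43 interferon-stimulated genes were followed across 16 conditions of mouse hepatocytes, hepatocyte-derived progenitors and organoids. The genes were listed by symbol, and each symbol was matched to an Ensembl identifier. All 43 were found among the 46078 identifiers of the deposited count table, of which 45143 carried a symbol.

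The cells came from wild-type C57BL/6J mice. Hepatocytes were taken from livers of adult animals of 10 weeks, as freshly isolated hepatocytes (FH, n = 3) or after monolayer culture with 20 ng/mL EGF for 3 h, 1 day, 2 days, 4 days, 7 days or 14 days (n = 3 each). At 7 days, further cultures had received 0.3 µM verteporfin, an inhibitor of the Yap and Tead complex, or its solvent DMSO (n = 2 each). Dedifferentiated hepatocytes (dediHeps, n = 5) were hepatocytes that proliferated and were passaged in monolayer with EGF. They were also grown as aggregates in ultra-low attachment plates (n = 3), as spherical organoids in Matrigel (dediHep-SOs, n = 3) and, after retroviral transfer of Cdx2, as budding organoids (dediHep-BOs, n = 3). Whether the cells of the dediHep-SOs also carried the retrovirus is not stated in the labels. Wnt3a and CHIR99021 were withdrawn for the budding form. Tags in the labels tie aggregates and dediHep-SOs to named dediHep cultures, while dediHep-BOs and CLiPs carry no such tag. FH and the cultures of 1 day to 14 days share a further set of tags. At 3 h the tags are mostly others, which the verteporfin and DMSO cultures share. What this further set stands for is not stated in the labels. Chemically induced liver progenitors (CLiPs, n = 3) were hepatocytes converted in serum-free medium by small-molecule inhibitors, among them inhibitors of the TGF-β receptor and of GSK3. Spherical organoids of fetal intestinal progenitors (FIPC-SOs, n = 3) came from embryos at E13.5, and budding organoids of adult intestinal stem cells (ISC-BOs, n = 4) from the small intestine of animals of 10 weeks. The labels do not say that the libraries of a group came from separate animals, so p-values measure the spread between libraries.

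Transcripts were counted by CEL-seq2, which reads 3′ ends and counts unique molecular identifiers (UMIs). Library totals ran from 861047 to 3872936 counts (median 1976760). A floor of 3 counts in a library corresponded to 0.775 to 3.48 CPM (counts scaled to the library total), and intervals on counts cover counting error only. Oas2, Oas3, Mx1 and Mx2 averaged under 1 CPM over the 49 libraries. A gene is termed called where its FDR in the quasi-likelihood test of edgeR was under 0.1 and its absolute log2 fold change over 2. Levels are CPM scaled with factors over all 49 libraries, given in the order of the replicates, and log2 fold changes come from the fit of each comparison and carry their SE. In bulk libraries fewer cells of a type and less RNA per cell cannot be told apart.

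Interferons are secreted proteins that cells release after their sensors meet foreign nucleic acid. Type I and type III interferons act through receptors and Jak kinases on a complex that includes Stat2 and Irf9 and binds the interferon-stimulated response element (ISRE) in promoters. Type II interferon acts at gamma-activated sites (GAS) and through Irf1. Many of the target genes encode proteins that bind viral RNA, degrade it, hold virions at the membrane or present peptides, and hepatocytes and gut epithelium both respond to interferon.

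Promoter windows are shown for members whose levels carry the comparisons, each with an ISRE match in capitals (GAAANNGAAA, searched on both strands) and 10 bases on either side. The sequences are from RefSeq on GRCm38.p6.
Ifit1 and Ifit1bl2, shared, first match (chr19:34640775-34640804, minus strand): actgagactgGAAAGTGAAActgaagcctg
Ifit1 and Ifit1bl2, shared, second match (chr19:34640794-34640823, minus strand): tcagcagtgaGAAACTGAAActgagactgg
Ifit3 (chr19:34583363-34583392, minus strand): accagaagagGAAAGTGAAActtaccactg
Rsad2 (chr12:26456553-26456582, plus strand): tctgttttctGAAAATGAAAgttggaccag
Stat2 (chr10:128270266-128270295, minus strand): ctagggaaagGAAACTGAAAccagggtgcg
Tmem140 (chr6:34863073-34863102, plus strand): gttaaaaaacGAAAGTGAAAtcagctgaga
Ifitm3 (chr7:141010706-141010735, minus strand): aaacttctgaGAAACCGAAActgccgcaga
Irf1, GAS match in capitals (chr11:53769914-53769942, plus strand): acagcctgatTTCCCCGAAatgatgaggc

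The window of Ifit3b at chr19:34607759-34607788 on the minus strand held the same 30 bases as that of Ifit3. Ifit1 and Ifit1bl2 start 146 bases apart on opposite strands of chromosome 19, so that the same matches lie before both genes. Promoters from 250 bases before to 50 bases after the start were at hand for 34 members, and 19 of them (55.9%) held an ISRE match, beside 3.99% of 27025 genes. A GAS match (TTCNNNGAA, which reads the same on both strands) was found for 7 of the 34 (20.6%), beside 9.55% of genes. No ISRE letters were found in the windows of Ifitm1, Oasl1, Oasl2, Irf7, Irf9 or Cmpk2. Dhx58, Zbp1, Usp18, Oas2, Mx1, Mx2, Rtp4, Ifi27 and Parp14 had no entry. Among the members called higher in CLiPs than in dediHeps, described later, 7 of 10 with a promoter held an ISRE match, and among those tested and not called 7 of 14. A match of letters describes the sequence and does not show that a factor was bound.

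Over the 16 conditions the members were highest most often in CLiPs, followed by 3 h cultures. Of the 39 members with a mean of at least 1 CPM, 18 (46.2%) had their highest group mean in CLiPs, beside 6.6% of the 14934 genes above the same minimum. These were Ddx58, the factors Irf7, Irf9 and Stat2, Isg15 and its protease Usp18, Ifit1, Ifit2, Ifit3, Ifit3b, Oas1a, Oas1g, Oasl2, Gbp2, Rtp4, Ifi44, Parp14 and Tmem140. Another 10 (25.6%, beside 15.3% of genes) were highest at 3 h, among them Irf1, Bst2, Rsad2, Ifi27 and the immunoproteasome subunits Psmb8 and Psmb9. FH held the highest mean of 5 members (12.8%, beside 10.7% of genes), Dhx58, Ifitm3, Cmpk2, Gbp3 and the peptide transporter subunit Tap1. Ifit1bl1, Ifit1bl2 and Oasl1 were highest in dediHep-BOs (7.69%, beside 7.06% of genes). Ifitm1 and Ifitm2 were highest in dediHep-SOs (5.13%, beside 7.66%), and Ifi35 in aggregates (2.56%, beside 6.24%). The shares in FH and in these dediHep cultures thus lay near or under those of all genes. The ranks were taken with the factors over all 49 libraries and were not repeated on another scale.

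The summed level of the 43 members was 1921 ± 398 CPM (SD, n = 3) in FH, 1819 ± 139 CPM at 3 h and 748 ± 88.0 CPM at 1 day. It was 525 ± 44.0 CPM at 2 weeks and 459 ± 124 CPM in dediHeps (n = 5). In CLiPs the sum was 1700 ± 156 CPM, and every CLiP library (1578 to 1876 CPM) lay above every dediHep library (312 to 596 CPM). The sum was 1717 ± 710 CPM in dediHep-SOs, 652 ± 23.7 CPM in dediHep-BOs, 295 ± 97.7 CPM in FIPC-SOs and 531 ± 276 CPM in ISC-BOs (n = 4). Without TMM factors the sum was 1224 CPM in FH and 1084 CPM at 3 h, below the 1840 CPM of CLiPs and 1817 CPM of dediHep-SOs, so that the order of FH and 3 h against those groups depended on the scaling. These sums were carried by different members. Without the 3 Ifitm genes, whose products sit in membranes and hinder the entry of viruses, CLiPs stood at 1386 ± 413 CPM, dediHep-SOs at 370 ± 11.9 CPM and dediHep-BOs at 434 ± 55.0 CPM. The Ifitm genes alone summed to 1348 ± 699 CPM in dediHep-SOs, 950 ± 422 CPM in FH and 97.1 ± 81.4 CPM in dediHeps.

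**Figure D1:**
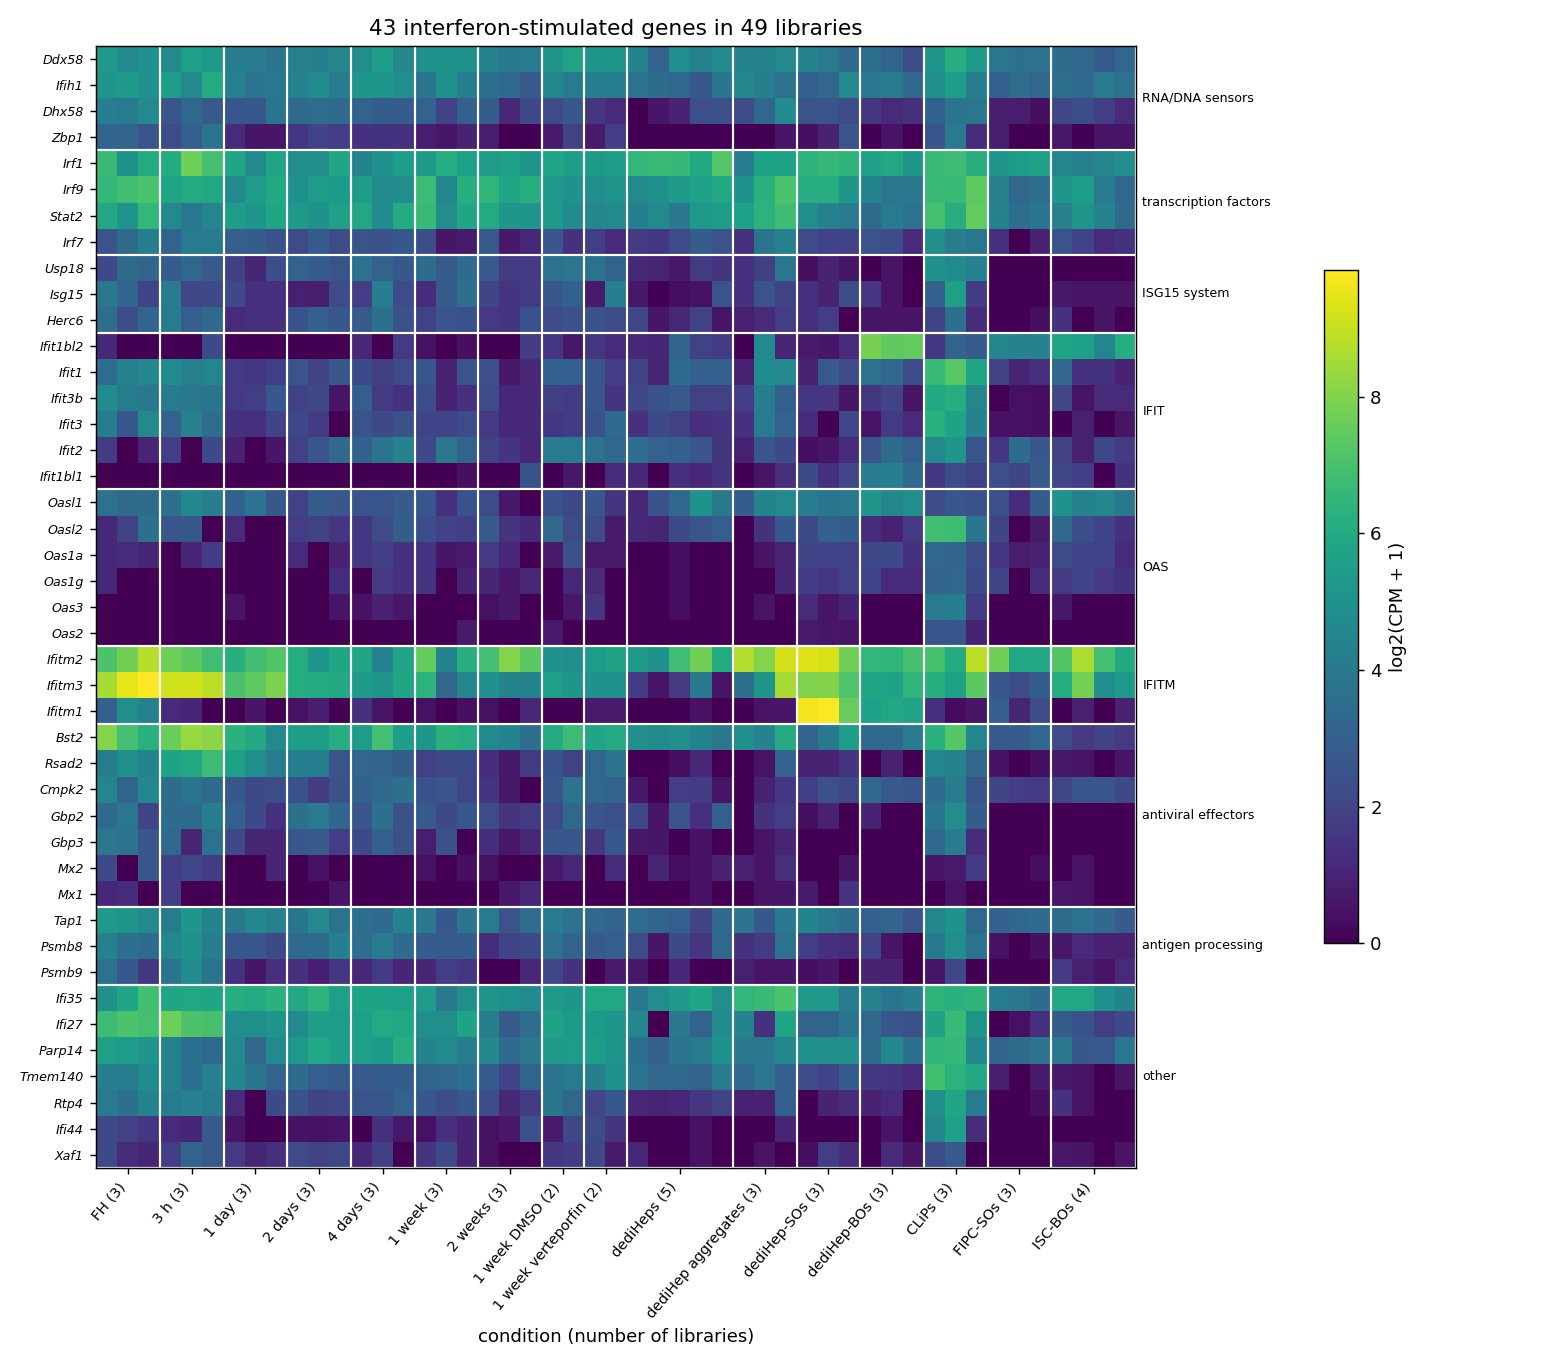
Levels of the 43 interferon-stimulated genes (rows, grouped by role) in the 49 libraries (columns, grouped by condition), as colour on the scale log2(CPM + 1). The Ifitm2 and Ifitm3 rows are bright in FH, at 3 h and in dediHep-SOs and the Ifitm1 row in dediHep-SOs, while most IFIT, OAS and factor rows are brightest in the 3 CLiP columns.

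CLiPs against dediHeps compares 2 kinds of proliferating progenitor that both derive from adult hepatocytes. Of the 43 members, 29 passed the filter on low counts and 14 did not. A member that is near 0 in dediHeps entered the test through CLiPs, so the counts describe the members tested and not all members. In CLiPs 13 of the 29 were called higher and 0 lower (25 and 0 at an unadjusted p under 0.05 by edgeR, 17 and 0 called by DESeq2), where 1.65% of the 11567 genes tested were called higher and 1.39% lower. The called members were Ifit1, Ifit3 and Ifit3b of the IFIT family, the factors Stat2 and Irf7, Usp18, Oasl2, Ifitm3, the antiviral enzymes Rsad2 and Cmpk2, and Rtp4, Parp14 and Tmem140. Irf9 and the RNA sensor Ifih1 passed the FDR without the fold threshold, which made 15 of 29 at any fold beside 2.84% of genes, and 0 were lower beside 1.85%. The median log2 fold change of the 29 was 2.22 and that of all genes tested -0.03, and 27 of the 29 values were positive. In 19 of the 29 each CLiP library lay above each dediHep library, as it did in 6.2% of genes, and in 0 of the 29 each lay below, as it did in 5.82% of genes.

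Among the IFIT genes, whose products bind viral RNA, Ifit3 stood at 74.9, 51.5 and 19.9 CPM in CLiPs and at 1.68, 3.52, 2.72, 1.58 and 1.89 CPM in dediHeps. Ifit1 stood at 101.5, 157 and 54.2 CPM in CLiPs and at 2.79, 1.00, 9.97, 7.10 and 7.10 CPM in dediHeps. For both genes the lowest CLiP library lay above the highest dediHep library. The log2 fold change was 4.41 ± 0.49 for Ifit3 (edgeR, FDR = 0.00504) and 4.19 ± 0.60 for Ifit1 (edgeR, FDR = 0.00947). Ifit3b, a near copy of Ifit3, differed by 3.72 ± 0.46 (edgeR, FDR = 0.00678). Ifit1bl2, which shares its promoter with Ifit1, differed by 0.73 (edgeR, FDR = 0.644). The last 500 bases of Ifit3 share 25.1% of their 30-base words with Ifit3b, so that counts of the pair may be split between them.

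Usp18 removes Isg15 from proteins and dampens signalling at the interferon receptor. It stood at 30.6, 24.8 and 19.4 CPM in CLiPs and at 1.12, 1.00, 0.604, 2.37 and 1.89 CPM in dediHeps, without overlap, with a log2 fold change of 4.15 ± 0.48 (edgeR, FDR = 0.00597). Isg15 itself, the ubiquitin-like modifier, varied more between CLiPs, with 7.39, 47.3 and 2.26 CPM beside 0.559, 0, 0.302, 0.395 and 4.73 CPM in dediHeps. Its lowest CLiP library lay below the highest dediHep library, and its log2 fold change of 4.01 ± 1.13 did not pass (edgeR, FDR = 0.102).

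Of the factors, Stat2 stood at 119.8, 70.2 and 176 CPM in CLiPs and at 17.9, 23.6, 14.5, 36.7 and 44.5 CPM in dediHeps (log2 fold change 2.19 ± 0.44, edgeR, FDR = 0.0342). Irf9, its partner at the ISRE, stood at 102, 99.4 and 169.5 CPM and at 24.6, 30.1, 37.8, 48.9 and 57.7 CPM (1.66 ± 0.36, edgeR, FDR = 0.0429). Irf7, which drives interferon genes, stood at 28.6, 16.8 and 13.6 CPM and at 2.24, 2.01, 3.93, 6.32 and 4.73 CPM (2.35 ± 0.48, edgeR, FDR = 0.0345). In these 3 genes the groups did not overlap. Irf1, whose GAS letters are shown above, overlapped fully, with 102, 109 and 70.1 CPM beside 91.7, 102, 96.3, 62.4 and 147 CPM and a log2 fold change of -0.07 ± 0.34 (edgeR, FDR = 0.943).

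Rsad2 (viperin), which makes a chain-terminating nucleotide, stood at 21.7, 18.7 and 8.59 CPM in CLiPs, while 3 of the 5 dediHep libraries had 0 counts and the others 0.302 and 1.18 CPM. Its log2 fold change was 5.46 ± 0.82 (edgeR, FDR = 0.0108), and the pooled counts of 152 and 4 gave a ratio of 49.6 (95% exact interval 19 to 184, counting error only). Cmpk2, the nucleotide kinase encoded beside Rsad2, differed by 3.08 ± 0.77 (edgeR, FDR = 0.0704). Oasl2, related to the 2′-5′-oligoadenylate synthetases, stood at 116, 111 and 13.1 CPM in CLiPs and at 1.12, 1.00, 3.62, 4.74 and 6.62 CPM in dediHeps (4.53 ± 0.74, edgeR, FDR = 0.0150). Oasl1 had the opposite sign, with 3.94, 5.25 and 4.52 CPM in CLiPs beside 1.12, 4.52, 8.76, 31.2 and 14.2 CPM, and did not pass (-1.35, edgeR, FDR = 0.438). Both genes are OAS-like, and among the tested members only Oasl1 and Irf1 had a negative value.

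Ifitm3 stood at 71.0, 46.9 and 166 CPM in CLiPs and at 2.24, 0.502, 2.11, 15 and 0.473 CPM in dediHeps (4.53 ± 0.92, edgeR, FDR = 0.0343). Its neighbour Ifitm2 overlapped between the groups, with 124, 64.9 and 466 CPM beside 30.6 to 215 CPM (1.27, edgeR, FDR = 0.403). Rtp4, a chaperone of receptors, stood at 28.1, 56.1 and 15.8 CPM beside 1.00 to 2.84 CPM (4.34 ± 0.53, edgeR, FDR = 0.00597), and Tmem140 at 115, 81.1 and 61.5 CPM beside 7.89 to 15.6 CPM (3.02 ± 0.37, edgeR, FDR = 0.00597). Neither overlapped. Tmem140 overlaps the gene Cyren on the opposite strand, and the strand setting of the counting is not given in the sources used here. Rtp4 overlaps the gene model Gm45338 on the same strand.

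Other members that lead their role by level did not pass. Ifi35 stood at 82.8, 78.0 and 83.6 CPM in CLiPs and at 14.5, 28.1, 39.3, 54.9 and 28.9 CPM in dediHeps, without overlap (1.32 ± 0.39, edgeR, FDR = 0.118). Bst2 (tetherin, which holds virions at the membrane) stood at 77.4, 150.5 and 21.2 CPM and at 28.5, 25.1, 28.4, 20.5 and 14.2 CPM, overlapping through CLiP 3 (1.84 ± 0.52, edgeR, FDR = 0.103). Tap1, part of the peptide transporter of class I presentation, stood at 21.7, 31.7 and 9.04 CPM and at 10.6, 8.04, 6.95, 3.16 and 9.46 CPM (1.47, edgeR, FDR = 0.170). It overlapped through CLiP 3 too. Ddx58 (Rig-I, a sensor of viral RNA) stood at 33.0, 70.0 and 38.0 CPM and at 20.7, 7.53, 27.8, 18.9 and 25.1 CPM, without overlap (1.25, edgeR, FDR = 0.188).

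**Figure D2:**
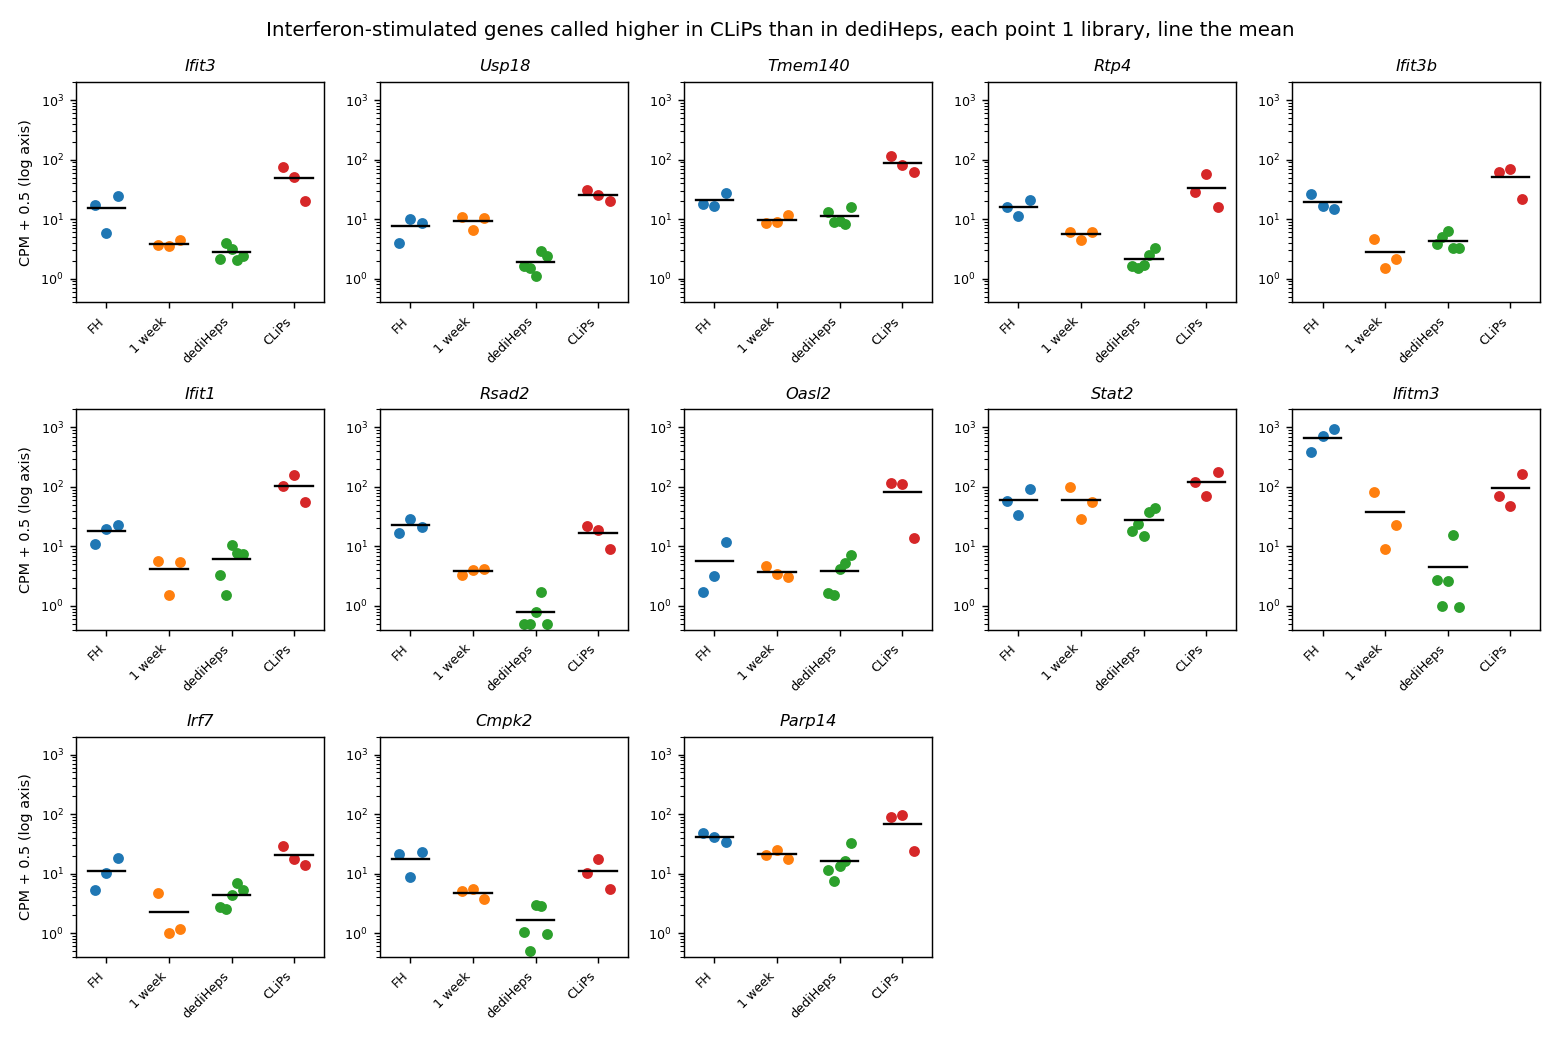
CPM + 0.5 on a log axis for the 13 members called higher in CLiPs, 1 point per library, in FH, hepatocytes at 1 week, dediHeps and CLiPs, with short lines at the group means. The CLiP points lie above the dediHep points for each gene but Parp14, where CLiP 3 overlaps with dediHeps.

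Several members too low for the test had at most 3 counts over the 5 dediHep libraries. They are named for that low level, so a high ratio follows in part from the choice. Other untested members are not given. Ifi44 had 278 counts in CLiPs and 1 in dediHeps, a ratio of 363 (95% exact interval 64.5 to 14373). Oas3 had 125 counts and 1 (163, interval 28.7 to 6491), Oas1a 65 and 1 (84.8, interval 14.7 to 3399.7), and Gbp3 103 and 3 (44.8, interval 14.9 to 221). Zbp1, the sensor of left-handed nucleic acid, had 86 counts in CLiPs and 0 in dediHeps, at least 37.4-fold higher against a floor of 3 counts over the group, and Oas2 had 38 and 0, at least 16.5-fold higher. These ratios pool libraries that differ, since Ifi44 stood at 22.2, 48.3 and 1.36 CPM in the 3 CLiPs. Mx1 had 2 counts and 1, and Mx2 9 and 6, which is too few to compare. Oas1a and Oas1g share 70.7% of the 30-base words in the last 500 bases of Oas1a, so their counts cannot be fully separated.

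The 3 CLiP libraries did not carry the pattern equally. CLiP 3 had the lowest of the CLiP values for 20 of the 29 tested members (69.0%, beside 41.2% of all genes tested), and CLiP 2 the highest for 17 (58.6%, beside 39.5%). CLiP 3 was highest for Stat2, Irf9, Ifitm2 and Ifitm3. Without CLiP 3 the count of members called rose to 22, and without CLiP 1 it was 8. Ifit1, Ifit3, Ifit3b, Usp18, Rtp4, Tmem140, Rsad2 and Oasl2 were called when any of the 8 libraries was left out. Stat2 was lost without CLiP 1 or CLiP 3, and Ifitm3 and Irf7 without CLiP 1. Cmpk2 and Parp14 were called in 2 of the 8 leave-one-out fits.

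The 13 called members were also read in the other conditions. They were picked for lying high in CLiPs and low in dediHeps, which partly sets where other conditions fall. The counts that follow describe these 13 only, and no share over all genes was computed for them. In FH 10 of the 13 lay above every dediHep library in all FH libraries, and 4 of the 13 lay below every CLiP library. At 2 weeks and in FIPC-SOs all 13 lay below every CLiP library, and in dediHep-SOs, dediHep-BOs and ISC-BOs 11 did. For Ifit3, Rtp4, Ifit3b, Rsad2, Stat2, Ifitm3, Irf7, Cmpk2 and Parp14 the highest FH library reached or exceeded the lowest CLiP library. For Ifitm3 each FH library lay above each CLiP library. Usp18, Ifit1, Oasl2 and Tmem140 lay below the CLiPs in every FH library.

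Markers of other cells were read beside these values. Csf1r, the receptor of a macrophage growth factor, stood at 122, 63.5 and 137 CPM in CLiPs and at 0.473 to 9.66 CPM in dediHeps, and Cd14 at 49.3, 227 and 40.7 CPM beside 18 to 189 CPM. The summed macrophage list ran from 178.5 to 294 CPM in CLiPs and from 19.9 to 192 CPM in dediHeps. Of its other genes, Cd68 had 19, 14 and 2 counts in CLiPs and 1 to 2 in dediHeps, and in CLiP 2 C1qb had 1 count and Fcer1g 2. Ptprc, Adgre1, Clec4f, Cd5l, C1qa, C1qc and Tyrobp had 0 counts in all CLiPs. Lymphocyte markers summed to at most 0.63 CPM and endothelial markers to at most 1.47 CPM in CLiPs, while fibroblast markers summed to 1.05 to 24.9 CPM in CLiPs and 0 to 1.68 CPM in dediHeps. The part of these lists in the result was not tested. The hepatocyte list summed to 2627 to 10116 CPM in CLiPs and 1485 to 5866 CPM in dediHeps.

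Budding against spherical organoids of dediHeps compares organoids given Cdx2, a factor of intestinal identity, and grown toward crypt-like buds with the spheres. Cdx2 transcripts stood at 172, 205 and 344 CPM in dediHep-BOs and at 87.7, 69.4 and 105 CPM in dediHep-SOs, and a retroviral transcript may lack the 3′ end that was read. The members split by family. Of 19 members tested, 3 were called higher in dediHep-BOs (Ifit1bl2, Ifit1bl1 and Ifit2) and 2 lower (Ifitm1 and Ifitm2), beside 5.6% of 11301 genes higher and 5.68% lower. At any fold 4 were higher and 7 lower, beside 19.2% and 21.3% of genes, so that the share higher at any fold lay near that of all genes. The median log2 fold change was -0.79 beside -0.00 over all genes tested. The other 24 members did not pass the filter on low counts.

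Ifit1bl2, an IFIT gene whose protein is little studied, stood at 0.642, 0.496 and 1.39 CPM in dediHep-SOs and at 225, 174 and 181 CPM in dediHep-BOs. Its log2 fold change was 7.81 ± 0.43 (edgeR, FDR = 1.98e-05). Ifit1, which starts 146 bases away behind the shared ISRE letters shown above, stood at 0.964, 5.95 and 3.70 CPM and at 12.1, 8.82 and 3.75 CPM, overlapping (1.3 ± 0.65, edgeR, FDR = 0.150). In CLiPs against dediHeps Ifit1 was called and Ifit1bl2 was not. Over all 16 conditions the 2 genes had their highest means in different conditions, CLiPs and dediHep-BOs. Ifit1bl2 overlaps another gene model on the opposite strand, from which it cannot be told apart where the counting ignores strand.

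Ifit1bl1 stood at 3.53, 1.49 and 3.24 CPM in dediHep-SOs and at 15, 17.6 and 10.0 CPM in dediHep-BOs (2.34 ± 0.45, edgeR, FDR = 0.00442). Ifit2 stood at 0.321, 0.496 and 1.39 CPM and at 4.85, 10.1 and 6.67 CPM (3.31 ± 0.63, edgeR, FDR = 0.00421). Neither overlapped. In dediHep-SOs Ifit2 and Ifit1bl2 lay at or under the floor of 3 counts, so the size of their folds is uncertain. Ifit1bl1 shares 30.8% of the 30-base words of its last 500 bases with Ifit1bl2, so part of its count may belong to the latter. Oasl1, which restrains translation of Irf7, stood at 16.7, 13.4 and 14.3 CPM and at 34.4, 21.6 and 28.4 CPM and passed the FDR without the fold threshold (0.95 ± 0.32, edgeR, FDR = 0.0485).

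The Ifitm genes were lower in the budding form. Ifitm1 stood at 817, 904 and 189 CPM in dediHep-SOs and at 48.5, 59.5 and 53.0 CPM in dediHep-BOs (-3.53 ± 0.51, edgeR, FDR = 0.000915). Ifitm2 stood at 681, 604 and 210.1 CPM and at 90.2, 86.0 and 127 CPM (-2.26 ± 0.41, edgeR, FDR = 0.00326). Ifitm3 stood at 246, 250.4 and 141 CPM and at 53.8, 51.6 and 85.5 CPM, and passed without the fold threshold (-1.70 ± 0.33, edgeR, FDR = 0.00437). In these 3 genes the lowest dediHep-SO library, SO 3, still lay above each dediHep-BO library. Without SO 1 the value of Ifitm2 was -1.95, under the fold threshold.

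Irf9 stood at 69.7, 70.9 and 36.6 CPM in dediHep-SOs and at 20.9, 13.7 and 14.6 CPM in dediHep-BOs (-1.82 ± 0.36, edgeR, FDR = 0.00485). Irf1 stood at 81.3, 96.2 and 82.8 CPM and at 49.5, 61.3 and 36.3 CPM (-0.79 ± 0.29, edgeR, FDR = 0.0645). Both were lower in each dediHep-BO library. Irf9 overlaps Rnf31 by 123 bases on the same strand. Fibroblast markers stood apart in this comparison, since Col1a1 had 113 and 156 counts in dediHep-BO 1 and 2 and 1 in dediHep-BO 3, and their part in the result was not tested. With both left out, 1 dediHep-BO library remained, the spread came from the dediHep-SOs alone, and that library was assumed to vary like them. Ifit1bl2 (7.73, edgeR, FDR = 0.00190) and Ifitm1 (-3.54, edgeR, FDR = 0.0781) were called in that fit. The calls of Ifit2 (3.20, edgeR, FDR = 0.168), Ifitm2 (-1.93, edgeR, FDR = 0.190) and Ifit1bl1 (1.87, edgeR, FDR = 0.249) were lost. Macrophage markers summed to 52.0 to 165 CPM in dediHep-SOs and 28.4 to 36.6 CPM in dediHep-BOs, and their part in the result was not tested.

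**Figure D3:**
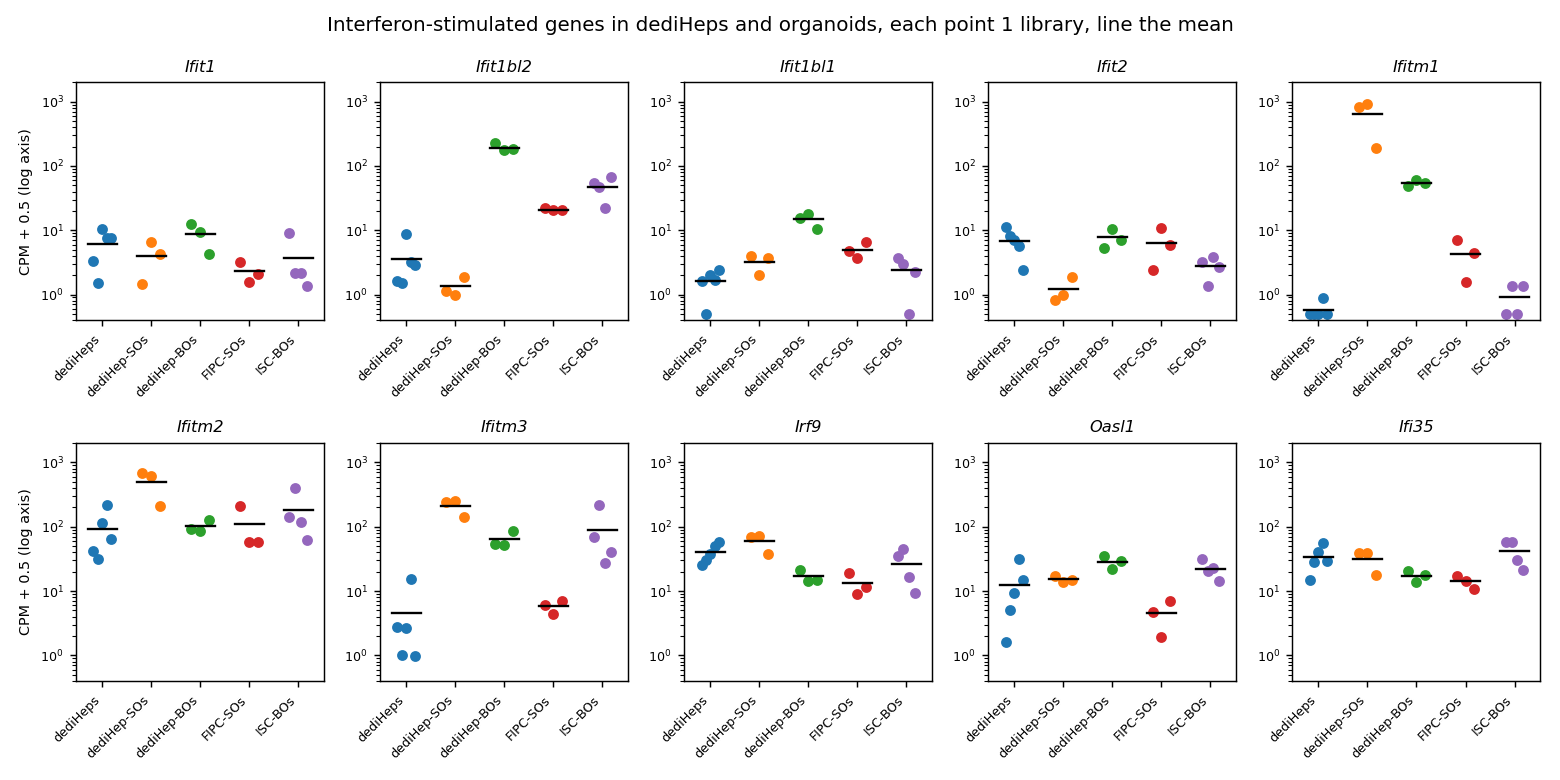
CPM + 0.5 on a log axis for 10 members in dediHeps, dediHep-SOs, dediHep-BOs, FIPC-SOs and ISC-BOs, 1 point per library and a short line at each group mean. Ifit1bl2 lies at 174 to 225 CPM in dediHep-BOs and at or under 1.39 CPM in dediHep-SOs, while Ifitm1 runs the other way.

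ISC-BOs against FIPC-SOs compares budding and spherical organoids of the intestine itself, adult against fetal. Of 13 members tested, Ifitm3 and Oasl1 were called higher in ISC-BOs and 0 lower by edgeR and by DESeq2 (4 and 2 at an unadjusted p under 0.05), beside 4.0% of 11644 genes higher and 2.62% lower. Ifitm3 stood at 68.1, 220.3, 27.1 and 40.6 CPM in ISC-BOs and at 5.46, 3.85 and 6.43 CPM in FIPC-SOs (4.04 ± 0.74, edgeR, FDR = 0.00393). Oasl1 stood at 30.8, 19.6, 22.0 and 14.0 CPM and at 4.29, 1.40 and 6.43 CPM (2.36 ± 0.48, edgeR, FDR = 0.00724). The groups did not overlap in either gene, and without FIPC-SO 2 the value of Oasl1 was 1.96, under the fold threshold. FIPC-SO 3 carried fibroblast transcripts (587 Col1a1 counts). Without it Ifitm3 differed by 4.21 (edgeR, FDR = 0.0227) and Oasl1 by 2.89 (edgeR, FDR = 0.0121).

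At any fold 4 members were higher in ISC-BOs and 2 lower, beside 9.25% and 6.95% of genes. Ifi35, a partner of Nmi, and Ifit1bl2 were the further ones higher, and Bst2 and Irf1 the lower ones. Ifit1bl2 stood at 53.5, 47.2, 22.0 and 66.8 CPM in ISC-BOs and at 21.4, 20.0 and 19.9 CPM in FIPC-SOs (1.18 ± 0.37, edgeR, FDR = 0.0613). Both kinds of intestinal organoid thus lay between dediHep-SOs and dediHep-BOs for this gene, without overlap with either. Ifitm1 was near 0 in the intestine, at 0 to 0.874 CPM in ISC-BOs and 1.05 to 6.63 CPM in FIPC-SOs. Irf1 stood at 18.8 to 28.4 CPM in ISC-BOs and 33.9 to 48.2 CPM in FIPC-SOs (-0.91 ± 0.27, edgeR, FDR = 0.0537).

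Whether budding and spherical organoids differed alike in both sources was tested as a difference of differences in 1 fit of the 4 groups. Of 20 members tested, 3 were called higher, meaning a more positive difference in dediHep organoids, and 6 lower, beside 5.37% and 4.08% of 12379 genes. Ifit1bl2 (6.61 ± 0.59, edgeR, FDR = 1.98e-05), Ifit2 (4.68 ± 0.96, edgeR, FDR = 0.00762) and Ifit1bl1 (3.64 ± 0.85, edgeR, FDR = 0.0159) were the IFIT genes. Ifitm3 (-5.76 ± 0.88, edgeR, FDR = 0.00102), Ifitm2 (-2.99 ± 0.88, edgeR, FDR = 0.0440), Irf9 (-2.85 ± 0.70, edgeR, FDR = 0.0197), Ifi35 (-2.45 ± 0.58, edgeR, FDR = 0.0170), Ifi27 (-3.11 ± 0.87, edgeR, FDR = 0.0371) and Oasl2 (-3.75 ± 1.15, edgeR, FDR = 0.0526) were lower. Leaving out 1 library at a time, Oasl2 was called in 7 of 13 fits, Ifitm2 in 8 and Ifi27 in 12 (lost without FIPC-SO 2), and the other 6 members in all 13. Oasl2 was lost without FIPC-SO 2 or 3, ISC-BO 1, dediHep-BO 1 or 2, or dediHep-SO 2, and Ifitm2 without FIPC-SO 2 or 3, dediHep-BO 2, or dediHep-SO 1 or 2. Ifit2, Ifit1bl1, Ifi27 and Oasl2 did not pass the filter on low counts in ISC-BOs against FIPC-SOs. Oasl2 did not pass it in the dediHep organoids either. Of 13 members tested in both comparisons, 6 had opposite signs. Budding came with Cdx2 transfer in dediHep organoids and with adult stage in those of the intestine, so these cannot be told apart from form.

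Ifi35, Ifi27 and Oasl2 were lower in dediHep-BOs or higher in ISC-BOs than in the spheres. Ifi35 stood at 38.2, 39.2 and 17.1 CPM in dediHep-SOs and 19.9, 13.2 and 17.5 CPM in dediHep-BOs, and at 16.8, 14.0 and 10.3 CPM in FIPC-SOs and 57.3, 57.3, 30.1 and 20.5 CPM in ISC-BOs. Ifi27, a mitochondrial protein, stood at 7.71, 7.93 and 13 CPM and 8.73, 5.29 and 4.59 CPM in the dediHep organoids, and at 0, 0.350 and 1.61 CPM and 6.49, 4.60, 2.54 and 3.50 CPM in those of the intestine. Oasl2 stood at 3.53, 7.44 and 6.48 CPM and 1.46, 0.882 and 2.09 CPM, and at 3.12, 0 and 0.643 CPM and 9.73, 4.18, 2.97 and 1.75 CPM. The dediHep groups overlapped for Ifi35 and Ifi27 and not for Oasl2, and those of the intestine overlapped for Oasl2 and not for Ifi35 or Ifi27. Ifi27 and Oasl2 lay near the floor of 3 counts in FIPC-SOs, and Oasl2 also in dediHep-BOs.

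**Figure D4:**
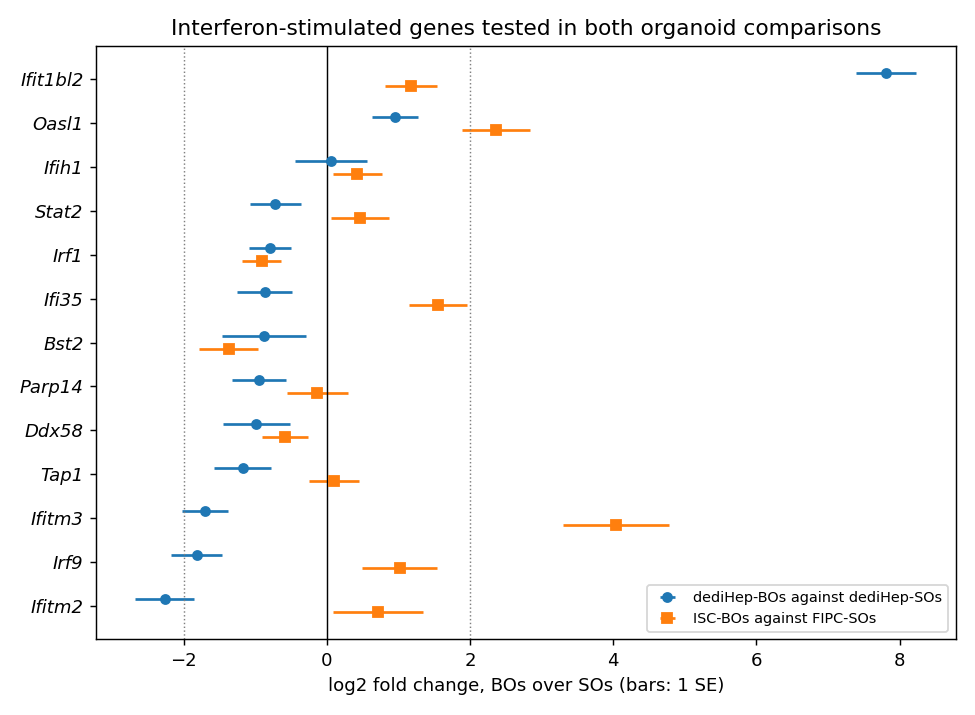
Log2 fold changes of budding against spherical organoids, with bars of 1 SE, for the 13 members tested in both sources, circles for dediHeps and squares for intestine, with dotted lines at the fold threshold. Ifitm3 lies at -1.70 in dediHep organoids and at 4.04 in those of the intestine, and Ifit1bl2 at 7.81 and 1.18.

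In monolayer culture most of the members tested had lower levels than in FH from 1 day on. The 6 time points were compared with FH in a single fit with 31 members tested. Most 3 h libraries carried other tags than FH, so time and set of cultures cannot be fully told apart there. With a block by tag, 174 genes were called higher and 90 lower at 3 h, beside 381 and 479 without it. At 3 h 0 were called in either direction by edgeR and by DESeq2 (3 higher and 4 lower at an unadjusted p under 0.05), beside 3.06% of 12443 genes higher and 3.85% lower, although at any fold (7.58% of genes higher and 10.9% lower) Rsad2 was higher (1.70 ± 0.47, edgeR, FDR = 0.0236) and Parp14, Stat2 and Dhx58 lower. At 1 day 10 were called lower and 0 higher (10.9% and 6.57% of genes). The counts of lower and higher calls were 9 and 1 at 2 days (12.1% and 9.21%), 5 and 1 at 4 days (12.4% and 11.4%), 8 and 1 at 1 week (12.8% and 13.2%) and 14 and 0 at 2 weeks (15.3% and 14.1%). The medians of the 31 were -0.04, -1.49, -1.20, -1.14, -1.36 and -1.91 in the order of time, beside -0.07 to 0.17 over all genes. The shares called lower were above those of all genes at each time from 1 day, least so at 4 days. Ifit1 and Ifit3b were called lower at each of the 5 times from 1 day.

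Ifitm3 stood at 382, 708 and 924 CPM in FH and at 566, 581 and 462 CPM at 3 h. It then stood at 129.7, 169.7 and 241 CPM at 1 day, at 60.8 to 67.3 CPM at 2 days and at 19.9 to 30.3 CPM at 2 weeks (-4.84 ± 0.58, edgeR, FDR = 4.28e-07). From 1 day on each library lay below each FH library, and dediHeps stood at 0.473 to 15 CPM (-7.43 ± 0.89 against FH, edgeR, FDR = 6.99e-05). Bst2 stood at 259.5, 119 and 75.3 CPM in FH, 199.98, 323 and 279 CPM at 3 h and 24.3, 20.5 and 11.6 CPM at 2 weeks (-2.99 ± 0.53, edgeR, FDR = 7.86e-05). Ifi27 stood at 107 to 137 CPM in FH and at 5.86 to 16.4 CPM at 2 weeks (-3.46 ± 0.39, edgeR, FDR = 1.88e-07).

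Rsad2 was highest early, with 16.5, 28.8 and 20.6 CPM in FH, 52.2, 57.3 and 106 CPM at 3 h and 1.43, 0.586 and 2.32 CPM at 2 weeks (-4.02 ± 0.63, edgeR, FDR = 1.78e-05). Ifit1 stood at 10.6, 19.2 and 22.7 CPM in FH and at 2.17, 2.01 and 2.54 CPM at 1 day (-3.03 ± 0.59, edgeR, FDR = 0.000381). Ifit2 ran against these, and was the member called higher at 2 days, 4 days and 1 week. It stood at 2.36, 0 and 1.03 CPM in FH and at 7.32, 12.7 and 20.3 CPM at 4 days (3.37 ± 0.90, edgeR, FDR = 0.00437), and at 2 weeks at 1.16 to 2.85 CPM, where the groups overlapped. Endothelial markers fell in the same libraries, from 206.5 to 350.5 CPM in FH to 5.00 to 10.4 CPM at 2 weeks, macrophage markers ran from 138 to 402.5 CPM in FH and from 23.2 to 259 CPM at 2 weeks, and their part in the result was not tested.

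**Figure D5:**
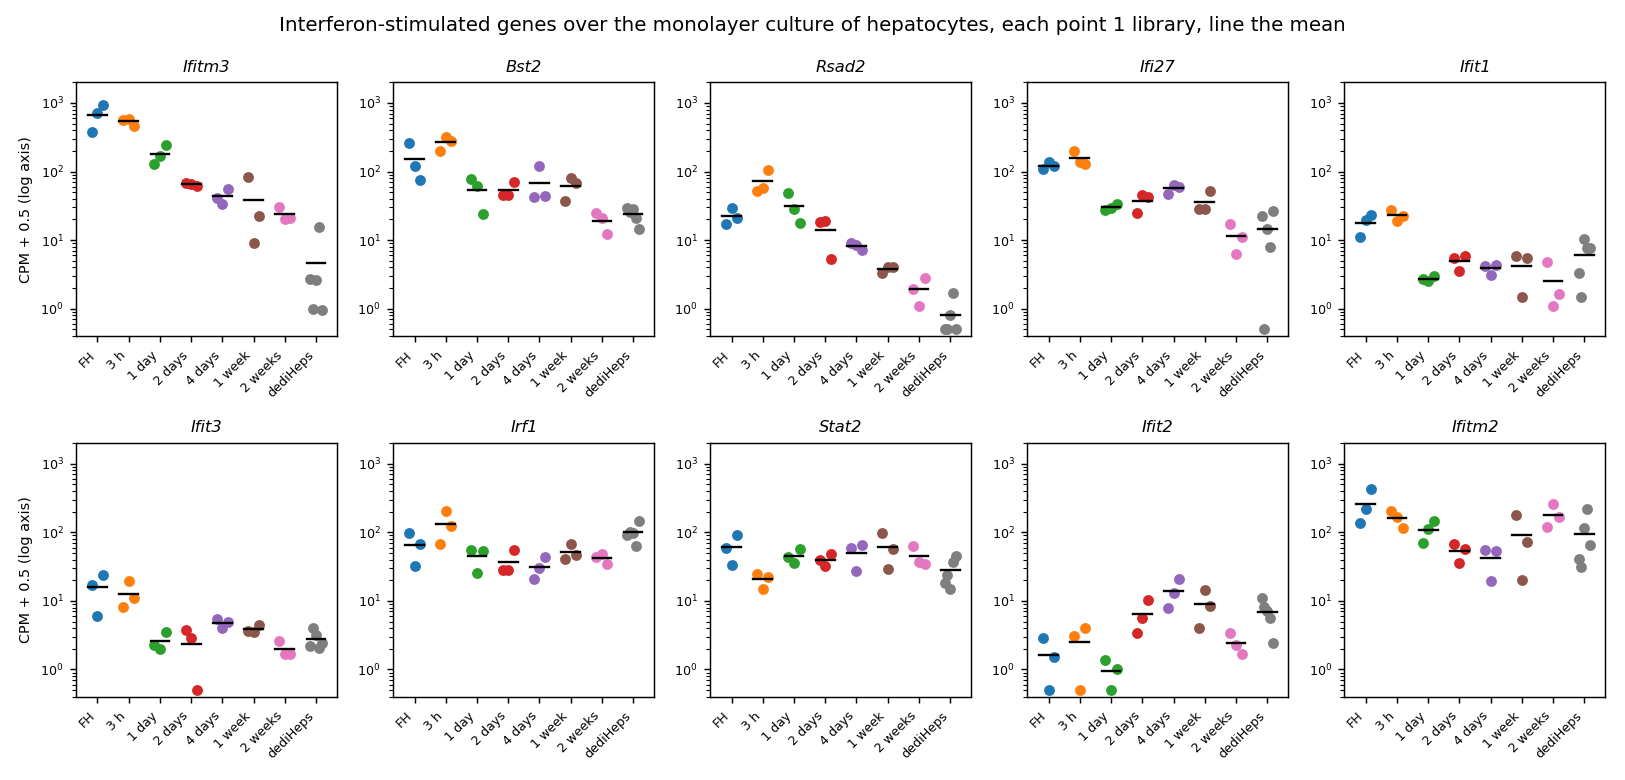
CPM + 0.5 on a log axis for 10 members in FH, at 6 culture times and in dediHeps, 1 point per library with a short line at each group mean. Ifitm3 descends from 382 to 924 CPM in FH to 19.9 to 30.3 CPM at 2 weeks, Rsad2 peaks at 3 h and Ifit2 at 4 days.

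Against FH, dediHeps had 8 of 23 tested members called lower and 1 higher, beside 12.6% and 13.1% of 11276 genes. The lower ones were Ifitm3, Rsad2 (-5.89 ± 0.74, edgeR, FDR = 9.65e-05), Rtp4, Dhx58, Ifi27, Bst2, Ifit3b and Tap1, and the higher one was Ifit2 (2.26 ± 0.87, edgeR, FDR = 0.0619), which was called in 3 of 8 leave-one-out fits. Endothelial markers summed to 206.5 to 350.5 CPM in FH and 0.559 to 1.00 CPM in dediHeps, fibroblast markers to 76.4 to 198 CPM and 0 to 1.68 CPM, and macrophage markers to 138 to 402.5 CPM and 19.9 to 192 CPM, and their part in the result was not tested. Aggregates had 2 of 19 members called higher than dediHeps and 0 lower by edgeR and by DESeq2 (6 and 1 at an unadjusted p under 0.05), beside 4.39% and 5.11% of 11265 genes. Ifitm3 stood at 11.3, 36.0 and 373 CPM in aggregates (5.06 ± 1.15, edgeR, FDR = 0.0184) and Ifitm2 at 415, 263 and 589.7 CPM (2.19 ± 0.56, edgeR, FDR = 0.0297). Aggregate 3 was the highest for 13 of the 19 (68.4%, beside 36.1% of genes). Without it neither gene was called, with values of 2.53 (edgeR, FDR = 0.177) and 1.89 (edgeR, FDR = 0.117).

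At 1 week the verteporfin and DMSO cultures had 2 libraries each, which are given as values without a test. The members summed to 549 and 578 CPM with verteporfin and to 616.2 and 616.4 CPM with DMSO. Rsad2 stood at 8.41 and 13 CPM with verteporfin and at 4.61 and 2.80 CPM with DMSO. Ifit2 stood at 11.6 and 8.67 CPM with verteporfin and at 15.2 and 15.7 CPM with DMSO. The 2 libraries of each treatment did not overlap for either gene, which can readily occur without an effect when groups are this small. The share of members or of all genes with such a separation was not computed.

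Other genes of the pathway were read from a list of 95 ligands, receptors, kinases, sensors, brakes, presentation genes and further targets. The 21 ligand genes, interferons themselves, had 2 counts in all CLiPs together (0 to 0.452 CPM) and none in dediHeps, and 0 were tested in any comparison. In CLiPs 61 of the 95 were tested, and 7 were called higher and 0 lower, beside 1.65% and 1.39% of all genes. Trim30a stood at 58.2, 75.7 and 4.97 CPM in CLiPs and at 0 to 0.946 CPM in dediHeps (6.90 ± 1.02, edgeR, FDR = 0.0108). The immunity-related GTPase Iigp1 stood at 50.3, 92.3 and 107 CPM and at 0.559 to 9.04 CPM (4.02 ± 0.61, edgeR, FDR = 0.0108). The guanylate-binding protein gene Gbp7 stood at 61.1, 59.1 and 25.8 CPM and at 1.97 to 9.46 CPM (3.42 ± 0.54, edgeR, FDR = 0.0144). The groups did not overlap in these genes. Others called were Parp12, Phf11d and Tmem173 (Sting).

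In dediHep-BOs against dediHep-SOs 57 of the 95 were tested, with 2 called higher and 5 lower, beside 5.6% and 5.68% of all genes, so that both shares lay near the background. Irf8, a factor better known from myeloid cells, stood at 8.35, 7.93 and 20.8 CPM in dediHep-SOs and at 155, 168 and 284 CPM in dediHep-BOs (4.07). Tapbp, which loads peptides on class I molecules, stood at 778, 883 and 292 CPM and at 102, 63.1 and 57.1 CPM (-3.10). Lgals3bp, a secreted glycoprotein, stood at 335, 448 and 283 CPM and at 93.6, 97.9 and 123 CPM (-1.72) and was under the fold threshold. None of the 3 overlapped. The other gene called higher was Ifi27l2b (3.36). In ISC-BOs against FIPC-SOs 53 were tested, with 4 called higher and 1 lower, beside 4.0% and 2.62% of all genes. Irf8 stood at 296, 526, 352 and 381 CPM beside 151, 103 and 116 CPM (1.63). Ifi27l2b, of the same family as Ifi27, stood at 258, 201, 148 and 241 CPM beside 27.3, 40.6 and 36.3 CPM (2.57). Ifi47, an immunity-related GTPase, had 0 counts in the FIPC-SOs and stood at 7.03, 20.5, 7.63 and 13.1 CPM in ISC-BOs. In these genes each ISC-BO library lay above each FIPC-SO library.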

How the data were processed

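The authors sequenced 3′ ends with CEL-seq2 and deposited UMI counts per Ensembl gene for 49 libraries, whole numbers without normalization. The submitters' processing notes name bcl2fastq 2.20, Bowtie2 2.3.1, HTSeq 0.6.0 and GRCm38; the strand setting is not given in the sources used here. Columns were matched to samples by their labels, and 0 were left out. UMIs of 6 bases give 4096 sequences, and the highest count of a member was 2544, so that high counts are understated.

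The members and the lists were chosen with earlier results of these data known. Groups were compared in R 4.3.3 by edgeR 4.0.16 and its quasi-likelihood test, on the libraries of the groups compared (the 6 times and FH, and the 4 organoid groups, in a single fit each), with TMM factors, filterByExpr (minimum count 10, minimum total 15), Benjamini-Hochberg adjustment over all genes tested, and calls at an FDR under 0.1 with an absolute log2 fold change over 2. The SE was derived from the log2 fold change and its F value. CPM were computed with TMM factors over 49 libraries. Ratios of pooled counts carry 95% exact binomial intervals. The scripts were tested on simulated counts.

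Library values were given by a rule for the 4 called members with the smallest p in each direction of the CLiP and both organoid comparisons, the member with the highest mean CPM in each role, every member called in the difference test, and the 3 pathway genes with the smallest p in each of those comparisons, except that 1 pathway gene is not reported here. Other genes were named after their values were seen, among them Stat2, Irf7, Isg15, Ifit1, Rsad2, Ifi44 and Zbp1.

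Alternatives were RLE factors, DESeq2 1.42.0, other filters and thresholds, all 49 libraries in 1 fit, a replicate block and leaving out each library. A correction for shared UMI sequences was tried too, and a fit without dediHep-BO 1 and 2 was chosen after the data were seen. The package data.table (1.17.8) was used for reading. Deviations of libraries with the same number correlated at -0.136 to 0.0236 for CLiPs and dediHeps, -0.209 to -0.00631 for dediHep organoids and -0.470 to 0.214 for intestinal organoids, so the numbers were not taken as pairs. Tags in the labels tie aggregates to dediHep cultures, and deviations of these pairs correlated at 0.178 to 0.357. For FH and the culture times, deviations of libraries with the same tag correlated at -0.577 to 0.627 (median 0.0695). The main fits did not use any tag.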

Additional observations from a re-analysis of the deposited data

Results flagged for a closer look

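Among 25 checks of single libraries in groups of 4 or more, limited to values with at least 10 counts, 2 stood far from the rest of their group, and chance gives about 1 in 20. Both were in dediHeps, Ifit1bl2 at 8.15 CPM and Ifitm3 at 15 CPM. The distance of each to the nearest other library was 0.754 and 0.879 of the range of the group.

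The difference between budding and spherical organoids itself differed between dediHeps and intestine for 9 members in the test of that difference. On the log2 scale it was more positive in dediHep organoids for Ifit1bl2 by 6.61, Ifit2 by 4.68 and Ifit1bl1 by 3.64. It was more negative for Ifitm3 (-5.76), Oasl2 (-3.75), Ifi27 (-3.11), Ifitm2 (-2.99), Irf9 (-2.85) and Ifi35 (-2.45). Leaving out 1 library ended the call of Oasl2 in 6 of 13 fits, of Ifitm2 in 5 and of Ifi27 in 1. Ifit2, Ifit1bl1, Ifi27 and Oasl2 were too low for a test in the intestine alone. Adult intestine was set against fetal intestine there, while both dediHep groups came from adult liver, so stage and form cannot be told apart in the intestine. The dediHep-BOs had received Cdx2 and were grown after withdrawal of Wnt3a and CHIR99021. In the dediHep organoids these steps and form cannot be told apart either.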

How the results depend on the processing

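With 13 members called higher in CLiPs, the fit of all 49 libraries called 25, the fit without a low-count filter 22, DESeq2 17 and the replicate block by number 11, and leave-one-out fits 8 (without CLiP 1) to 22 (without CLiP 3). For dediHep-BOs against dediHep-SOs (5 called) it was 11 without the fold threshold, 2 without dediHep-BO 1 and 2, and 5 to 6 leaving out 1 library. For ISC-BOs against FIPC-SOs (2) it was 6 without the fold threshold, in the 49-library fit and without the filter, and 2 to 3 leaving out 1 library. For dediHeps against FH (9) it was 19 without the fold threshold and without the filter, 20 in the 49-library fit and 8 to 11 leaving out 1 library. For aggregates (2) it was 5 without the fold threshold and in the 49-library fit, 4 without the filter and 4 with the replicate block by number, but 2 with the block by culture tag, and 0 (without aggregate 3) to 6 (without aggregate 1) leaving out 1 library, with 1 without dediHep 1 or dediHep 2. At 3 h (0) it was 4 without the fold threshold, 1 in the 49-library fit and without the filter, and 0 to 2 leaving out 1 library. Without the fold threshold 20 were called at 1 day (10; 6 with a stricter filter), 17 at 2 days (10), 16 at 4 days (6), 22 at 1 week (9) and 23 at 2 weeks (14). The ranges leaving out 1 library were 10 to 13, 6 (without FH 3) to 10, 7 to 9, 7 to 12 and 14 to 20, and 7 to 10 for the difference test. The summed level without a TMM factor was 1224 CPM in FH, 1084 at 3 h, 639 at 2 days, 717 at 4 days, 653 with DMSO (604 with RLE factors), 596 with verteporfin and 738 in dediHep-BOs. Of the values of the 27 comparisons of members named by rule, which hold 4 of the 13 members called in CLiPs, 416 kept their direction and side of the threshold, 17 lost the call, 2 gained it and 0 changed sign. The cause of these changes was not tested. Members under the floor of 3 counts could not be compared at this depth.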

Other observations

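Over the 16 group means, the member with the lowest median Spearman correlation with the others was Ifit1bl1 (-0.43), followed by Ifit1bl2 (-0.29) and Oas1g (-0.21), and the highest were Gbp3 (0.73), Ifi27 (0.72) and Psmb8 (0.72). These values describe 39 members that share the same libraries and their depth, and they carry no test. FIPC-SOs had the lowest group mean for 17 of the 43 members, for which no share over all genes was computed. Several of these means were 0, as for Isg15, Usp18, Gbp2, Psmb9 and Xaf1. A tie at 0 was given to the condition listed first, so the count depends in part on that order.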
